A study of Homo sapiens with 6 samples.

Results

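This report follows 10 genes that encode enzymes of fatty acid synthesis, elongation, desaturation and activation in PC-3 cells: ACLY, ACACA, FASN, SCD, ELOVL5, ELOVL6, FADS1, FADS2, ACSS2 and ACSL3. The genes were chosen by name for their enzymatic role, with earlier results of these data known. They are 10 of the 19491 genes listed in the expression tables. PC-3 is an established human prostate cancer cell line that grows without androgen. The study examined how inhibitors of the neutral amino acid transporter ASCT2, which carries glutamine into the cell and is encoded by SLC1A5, affected gene expression across the genome. Cells in complete medium with serum were incubated for 48 h without inhibitor (control), with GPNA (l-γ-glutamyl-p-nitroanilide, 1 mM) or with BenSer (benzylserine, 10 mM). The doses of the compounds therefore differed by a factor of 10. Per the culture methods of the paper, control wells received the vehicle, which was water for both compounds. Neither compound acts on ASCT2 alone, so each group is a model of the compound at that dose rather than of transporter loss.

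RNA was sequenced from 3 groups, each labelled as 2 samples, and the values are given as CPM, the reads of a gene for every 1000000 reads of the library. Library totals were 23077986 to 23227180 reads in control cells, 25452745 to 25798967 in GPNA cells and 31943025 to 32178154 in BenSer cells. The 2 columns of a group differed by little beyond the sampling noise of reads: chi-square divided by its degrees of freedom was 1.04 to 1.06 over genes within groups and 5.33 to 20.6 between groups. The labels do not say that the 2 columns came from separate cultures, so they were counted as 1 sample per group and no test of treatment was made. Differences are given as log2(mean CPM + 1) of the first group minus that of the second, with an exact (Clopper-Pearson) 95% interval that covers the counting error of the reads only. The epithelial and prostate markers listed in the tables (8 of 11) summed to 1260 to 1390 CPM, with EPCAM at 97.8 CPM in control cells. KLK3 and KLK2 were not among the listed genes. Of 12 markers of fibroblasts, endothelium and blood, 2 were listed, COL1A1 and COL3A1, which summed to 4.24 to 7.23 CPM.

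Fatty acid synthesis starts from cytosolic acetyl-CoA, which ACLY makes from citrate and ACSS2 makes from acetate. Acetyl-CoA carboxylase (ACACA) turns it into malonyl-CoA, fatty acid synthase (FASN) builds palmitate from it, and the ELOVL enzymes lengthen the chain while SCD, FADS1 and FADS2 place double bonds in it. Many of these genes are known targets of the SREBP transcription factors, which are held in the endoplasmic reticulum by INSIG proteins when sterols are plentiful, and the pathway is known to be active in prostate cancer.

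The start regions of SCD, ELOVL5 and ACSS2 are shown because their transcripts stand for some of the patterns found. The pattern of ACACA and FASN, near control with GPNA and lower with BenSer, is not among those shown. SCD was higher with GPNA and lower with BenSer, and ACSS2 was higher with both. ELOVL5 was lower with both, though by little with GPNA (-0.11), where 3268 of 10070 genes at 5 CPM or more had a lower difference. Each sequence is the 250 bases before an annotated transcript start in RefSeq (GRCh38.p14), written 5′ to 3′ on the strand of the gene, and capitals mark the CCAAT box (CCAAT, or ATTGG when on the other strand) and the E-box (CACGTG).
SCD, chr10:100346983-100347232, plus strand: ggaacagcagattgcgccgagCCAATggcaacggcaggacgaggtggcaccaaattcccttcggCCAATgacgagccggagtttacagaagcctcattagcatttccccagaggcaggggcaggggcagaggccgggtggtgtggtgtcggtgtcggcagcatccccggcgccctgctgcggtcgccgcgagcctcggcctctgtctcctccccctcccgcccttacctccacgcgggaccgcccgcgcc
ELOVL5, chr6:53348951-53349200, minus strand: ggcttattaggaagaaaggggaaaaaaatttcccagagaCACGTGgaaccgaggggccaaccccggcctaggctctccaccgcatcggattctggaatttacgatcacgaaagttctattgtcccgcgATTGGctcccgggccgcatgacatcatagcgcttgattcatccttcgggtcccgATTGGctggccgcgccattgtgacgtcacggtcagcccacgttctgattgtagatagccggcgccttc
ACSS2 (the second of 2 annotated starts), chr20:34876362-34876611, plus strand: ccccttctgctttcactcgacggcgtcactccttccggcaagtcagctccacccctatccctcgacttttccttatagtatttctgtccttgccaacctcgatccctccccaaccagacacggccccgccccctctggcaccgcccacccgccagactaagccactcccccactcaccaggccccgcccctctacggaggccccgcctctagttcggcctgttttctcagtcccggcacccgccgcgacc
The SCD region held 2 CCAAT boxes, the ELOVL5 region held 2 CCAAT boxes and 1 E-box, and this ACSS2 region held neither motif. The window of the first ACSS2 start, which is not printed, held 1 CCAAT box, so this contrast depends on the start shown. Windows of 300 bases (50 of them after the start) were given for 9 of the 10 genes, all but FASN. Exact matches were searched on both strands. The sterol regulatory element TCACNCCAC was found in the windows of 0 of these 9 genes, against 1.39% of all 27305 genes with a window. This exact match was also in the windows of 0 of 16 cholesterol genes. It was in those of 2 of 19 genes of SREBP and LXR control, 2 of 12 other acyl-CoA synthetases and 1 of 11 genes of glycerolipids and droplets. With so rare a match, 0 of 9 does not show that these genes lack SREBP sites. The CCAAT box was in a window of 7 of the 9 (ACLY, ACACA, SCD, ELOVL5, FADS2, ACSS2 and ACSL3), against 39.7% of all genes, and the E-box CACGTG was in that of ELOVL5, against 8.77%. Among related genes, the CCAAT box was in a window of 14 of 16 cholesterol genes, 11 of 13 genes of carbon and NADPH supply, 6 of 11 genes of glycerolipids and droplets and 9 of 17 genes of other synthesis, elongation and desaturation steps. It was in a window of 7 of 19 genes of SREBP and LXR control, 4 of 12 other acyl-CoA synthetases and 2 of 17 genes of fatty acid oxidation. These matches describe letters in the windows and not occupied sites.

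With GPNA, SCD was the member with the greatest difference from control and ACSS2 and ACSL3 followed, while ACACA and FASN stayed near their control levels. With BenSer, 9 of the 10 transcripts were lower than control, led by FASN, FADS2 and FADS1, and ACSS2 alone among the members was higher. Past a threshold of 1.5-fold on the log2(CPM + 1) scale (0.585), 0 members were higher and 0 lower with GPNA, where 0.34% of 18828 genes were higher and 0.0637% lower. With BenSer 0 members were higher and 1, FASN, was lower, where 1.96% of 18976 genes were higher and 1.58% lower. At 1.2-fold, 2 members were higher and 0 lower with GPNA (5.18% and 5.86% of all genes), and 1 was higher and 8 were lower with BenSer (10.4% and 15.0% of all genes). The counting interval lay above 0 for 5 members and below 0 for 2 with GPNA (9.78% and 20.1% of all genes), and above 0 for 1 and below 0 for 9 with BenSer (18.2% and 25.8%). Intervals narrow with depth, and among genes with a mean of at least 5 CPM in either group the share below 0 was 33.0% with GPNA and 37.9% with BenSer. The median difference of the 10 members was 0.07 with GPNA and -0.37 with BenSer, and that of all genes was -0.03 with each. Both comparisons use the same control columns. In bulk RNA, a lower level in every cell and a smaller share of cells with the transcript cannot be told apart.

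**Figure D1:**
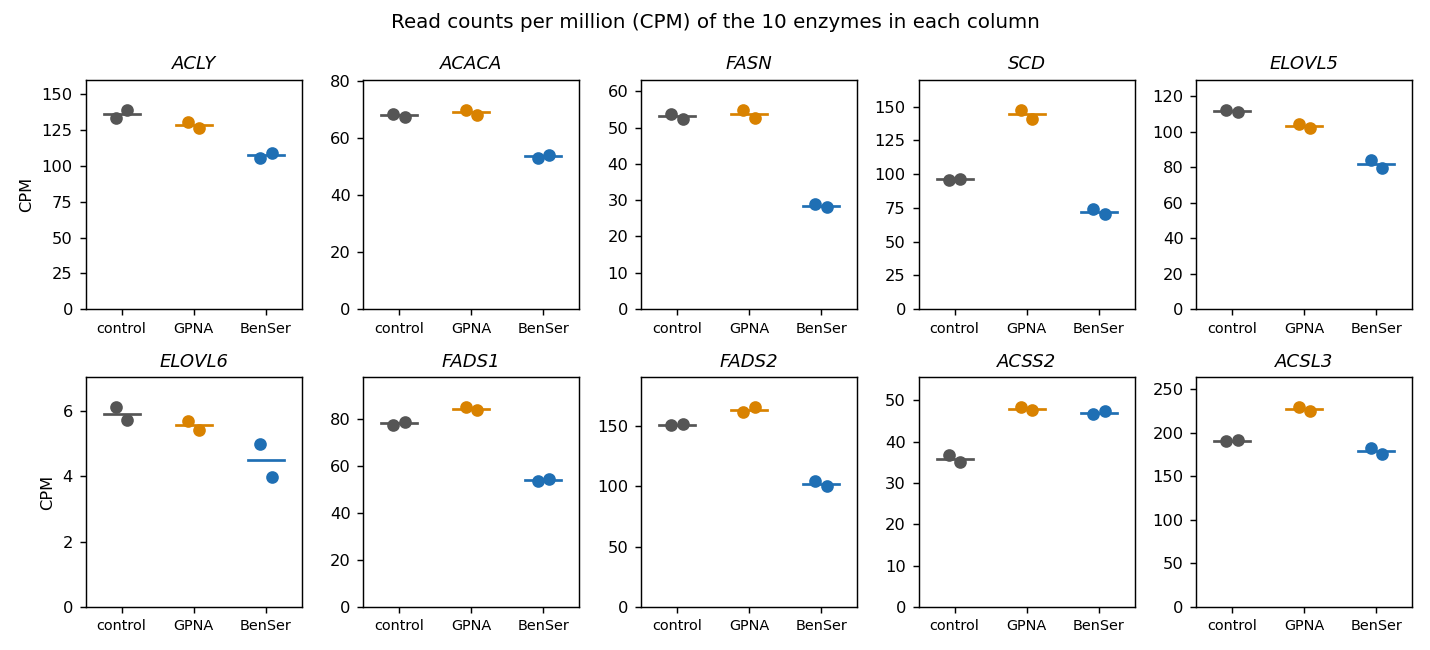
CPM (y axis, linear from 0) of each of the 10 enzymes in control, GPNA and BenSer cells. Points are the 2 columns of a group and lines are their mean. SCD stood at 141 and 148 CPM with GPNA, above 95.8 and 96.6 CPM in control cells, and FASN stood at 28.1 and 28.9 CPM with BenSer, below 52.4 and 53.9 CPM in control cells.

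The acetyl-CoA suppliers differed from each other. ACLY (chr17:40023170-40086795, minus strand, where all gene positions are GENCODE positions on GRCh37) was read at 133 and 139 CPM in control cells, 131 and 127 CPM with GPNA and 106 and 109 CPM with BenSer. The BenSer columns were below all others, and the GPNA columns lay just below the control columns. Its difference was -0.08 (95% interval -0.13 to -0.03) with GPNA and -0.34 (-0.39 to -0.29) with BenSer. With TMM scaling, which adjusts the library totals, the GPNA interval of ACLY included 0.

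ACSS2 (chr20:33459949-33515765, plus strand), which activates acetate, was read at 36.7 and 35.1 CPM in control cells, 48.3 and 47.8 CPM with GPNA and 46.7 and 47.4 CPM with BenSer. All 4 treated columns lay above both control columns. The transcript was 33.9% higher than control with GPNA (log2 difference 0.41, 95% interval 0.32 to 0.50) and 31.2% higher with BenSer (0.38, 0.30 to 0.47). Among the 10070 genes at 5 CPM or more, 110 had a higher difference than ACSS2 with GPNA, and 662 of 10134 did with BenSer. The difference between the compounds was -0.03 (-0.10 to 0.05), an interval that included 0.

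ACACA (chr17:35441927-35766927, minus strand), which makes malonyl-CoA, was read at 68.5 and 67.6 CPM in control cells, 70.0 and 68.2 CPM with GPNA and 53.1 and 54.1 CPM with BenSer. The GPNA and control columns overlapped and the BenSer columns lay below both. The difference was 0.02 (-0.05 to 0.09) with GPNA and -0.34 (-0.41 to -0.27) with BenSer.

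FASN (chr17:80036214-80056170, minus strand), which builds palmitate, was read at 53.9 and 52.4 CPM in control cells, 54.9 and 52.6 CPM with GPNA and 28.9 and 28.1 CPM with BenSer. The control and GPNA columns overlapped, and the BenSer columns stood apart, with a mean of 28.5 CPM against 53.1 CPM in control cells. FASN was 46.4% lower than control with BenSer (log2 difference -0.88, 95% interval -0.96 to -0.79), the lowest difference of the 10 members, and 18 of 10134 genes at 5 CPM or more had a lower one. With GPNA the difference was 0.02 (-0.06 to 0.09), and its sign varied from -0.01 to 0.06 over the alternative settings.

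Both elongases were lower with BenSer. ELOVL5 (chr6:53132196-53213977, minus strand), which lengthens polyunsaturated chains, was read at 113 and 111 CPM in control cells, 105 and 102 CPM with GPNA and 83.9 and 79.8 CPM with BenSer. The groups did not overlap and descended from control through GPNA to BenSer. The difference was -0.11 (-0.17 to -0.06) with GPNA and -0.44 (-0.50 to -0.39) with BenSer. Of 10070 genes at 5 CPM or more, 3268 had a lower difference than ELOVL5 with GPNA, and 603 of 10134 did with BenSer. ELOVL6 (chr4:110967002-111120355, minus strand), which lengthens palmitate, was the least abundant member, at 6.11 and 5.72 CPM in control cells, 5.70 and 5.42 CPM with GPNA and 5.00 and 3.98 CPM with BenSer. Its values rest on 274 to 288 reads per group, against 1662 to 11627 for the other members. Its columns were lowest with BenSer (difference -0.33, interval -0.54 to -0.13, or -0.20 without BenSer replicate 2 and -0.48 without BenSer replicate 1), and a difference with GPNA was not detectable at this depth (-0.08, -0.28 to 0.13).

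Of the 10 members, SCD, a desaturase, gave the greatest separation between the compounds. SCD (chr10:102106990-102124583, plus strand), which makes monounsaturated fatty acids, was read at 95.8 and 96.6 CPM in control cells, 148 and 141 CPM with GPNA and 74.3 and 70.3 CPM with BenSer. The groups did not overlap, with GPNA highest and BenSer lowest. The mean was 50.2% above control with GPNA (log2 difference 0.58, 95% interval 0.53 to 0.64), just below the 1.5-fold line on the log2(CPM + 1) scale, and 52 of 10070 genes had a higher difference. SCD passed that line with a pseudocount of 0.1, with each of the other scalings, and without control replicate 2 or GPNA replicate 2. Of all 18828 genes, 64 were higher past it, against 879 with a pseudocount of 0.1 and 82 with TMM scaling. With BenSer, SCD was 24.8% below control (-0.41, -0.47 to -0.35).

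FADS1 (chr11:61567099-61596790, minus strand), the delta-5 desaturase, was read at 77.5 and 78.7 CPM in control cells, 85.0 and 83.8 CPM with GPNA and 53.5 and 54.5 CPM with BenSer. FADS2 (chr11:61560452-61634826, plus strand), the delta-6 desaturase, was read at 151 and 152 CPM in control cells, 162 and 166 CPM with GPNA and 104 and 100.5 CPM with BenSer. In both genes the GPNA columns were highest and the BenSer columns lowest. With GPNA the differences of FADS1 and FADS2 were both 0.11 (0.05 to 0.17 and 0.07 to 0.16). With BenSer they were -0.53 (-0.59 to -0.46) and -0.56 (-0.61 to -0.51), which is 30.9% and 32.3% below control. Without BenSer replicate 1, FADS2 passed 1.5-fold (-0.59). The exons of these neighbouring genes share 490 bases on opposite strands, 4.79% of the FADS1 exons and 4.64% of the FADS2 exons. The strand setting of the counting is not given in the sources used here, so their values may not be fully separate.

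ACSL3 (chr2:223725660-223809357, plus strand), which activates long fatty acids at the endoplasmic reticulum and lipid droplets, was the member with the most reads. It was read at 189.95 and 192 CPM in control cells, 229 and 225 CPM with GPNA and 183 and 175 CPM with BenSer. The GPNA columns stood above the others and the BenSer columns slightly below control. The transcript was 18.8% above control with GPNA (0.25, 0.21 to 0.29) and 6.22% below with BenSer (-0.09, -0.13 to -0.05). The BenSer difference of ACSL3 shrank to -0.05 with TMM scaling.

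Set directly against each other, at doses that differed, the BenSer columns were lower than the GPNA columns for 4 members past 1.5-fold (0.813% of 19056 genes were that much lower) and for 0 members higher (1.05%). These were SCD (-0.99, interval -1.04 to -0.94), FASN (-0.89, -0.98 to -0.81), FADS2 (-0.67, -0.72 to -0.62) and FADS1 (-0.64, -0.70 to -0.57). The ratio of the SCD means, BenSer over GPNA, was 0.5005, and 8 of 10112 genes at 5 CPM or more had a lower difference than SCD. ACACA (-0.36), ACSL3 (-0.34), ELOVL5 (-0.33), ACLY (-0.26) and ELOVL6 (-0.26, or -0.13 without BenSer replicate 2 and -0.40 without BenSer replicate 1) were lower by less. At 1.2-fold 7 members were lower (2087 of 19056 genes were). The interval lay below 0 for 9 of the 10 members, against 20.7% of all genes and 28.9% of those at 5 CPM or more. The median of the members was -0.35 and that of all genes -0.01.

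**Figure D2:**
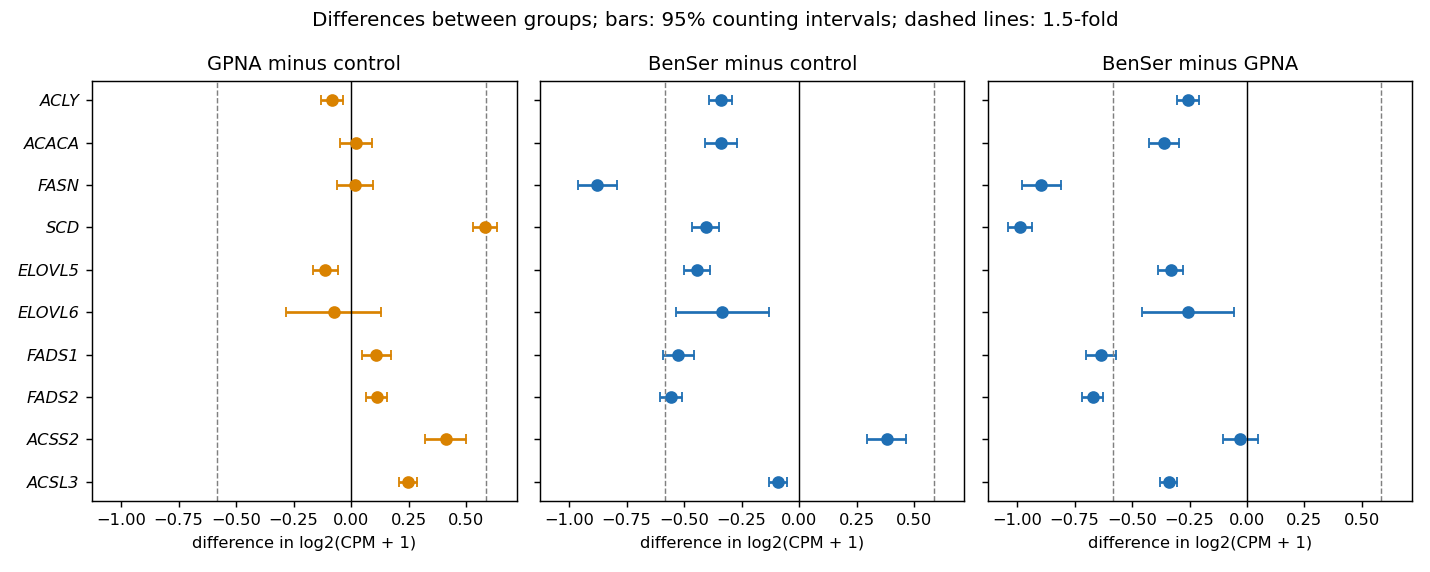
Difference in log2(CPM + 1) (x axis) for each enzyme in 3 comparisons. Points are the difference of group means, bars are 95% counting intervals, and dashed lines mark 1.5-fold. With BenSer every member but ACSS2 lies left of 0, and FASN, at -0.88, lies beyond the dashed line. In the GPNA panel SCD, at 0.58, lies at the line.

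Levels can be set against each other between genes only per length. Divided by the length of the canonical transcript, control levels were highest for FADS2 (48.9 CPM per kb), ELOVL5 (40.4), ACSL3 (34.2) and ACLY (31.8). SCD (18.3 CPM per kb), FADS1 (17.9) and ACSS2 (12.4) followed, and ACACA (6.80), FASN (6.28) and ELOVL6 (0.901) were lowest. SCD and FADS1 were neighbours in this order at nearly the same level in control cells, and stood at 27.5 and 19.3 CPM per kb with GPNA. With BenSer, ACSS2 (16.3 CPM per kb) stood above SCD (13.8) and FADS1 (12.4). The order depended on the length used: per length of all annotated exons, ELOVL5 (29.3 CPM per kb), ACLY (26.2) and SCD (18.3) led and FADS2 (14.3) came after them. ELOVL6 was lowest with both lengths.

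**Figure D3:**
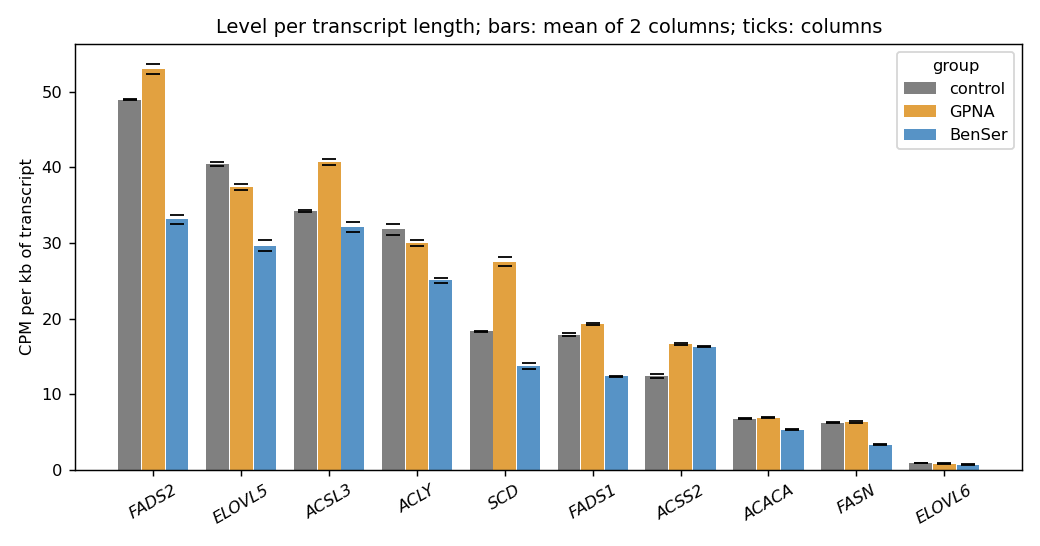
CPM per kb of the canonical transcript (y axis, from 0) of the 10 enzymes, in order of their control level. Bars are the mean of the 2 columns of a group and ticks are the columns. FADS2 is highest in every group (33.1 to 52.9 CPM per kb) and ELOVL6 lowest (0.683 to 0.901 CPM per kb).

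The genes that control the SREBP pathway were read beside the enzymes. INSIG1, which retains the SREBP complex in the endoplasmic reticulum and is itself a known SREBP target, was read at 14.4 and 14.2 CPM in control cells, 25.001 and 27.3 CPM with GPNA and 8.36 and 8.23 CPM with BenSer. Like SCD, INSIG1 was highest with GPNA and lowest with BenSer, with no overlap between groups (differences 0.83, interval 0.70 to 0.96, and -0.72, -0.87 to -0.56). SREBF1, which encodes SREBP-1, was read at 30.4 and 30.5 CPM in control cells, 35.001 and 34.6 CPM with GPNA and 20.4 and 21.0 CPM with BenSer (differences 0.19, 0.09 to 0.28, and -0.54, -0.64 to -0.43). SREBF2, which encodes SREBP-2, was -0.01 (-0.12 to 0.11) with GPNA and -0.30 (-0.42 to -0.19) with BenSer. SCAP, the SREBP escort, was lower with GPNA and higher with BenSer, at -0.13 (-0.22 to -0.05) and 0.26 (0.19 to 0.34). The interval of INSIG2 included 0 in both comparisons (0.07 in each). Of the 19 genes on the SREBP and LXR control list, INSIG1 alone passed 1.5-fold with either compound, and the list medians were 0.04 with GPNA and 0.02 with BenSer over the 18 with enough reads in the latter.

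Other enzymes of the same pathway were read from a list. Of its 19 listed genes of mitochondrial fatty acid synthesis and of other elongation and desaturation steps, 0 passed 1.5-fold with either compound. Their medians were -0.07 with GPNA and -0.09 with BenSer. Intervals lay below 0 for 4 and above 0 for 0 with GPNA (20.1% and 9.78% of all genes). With BenSer they lay below 0 for 7 and above 0 for 2 (25.8% and 18.2% of all genes). Of all genes at 5 CPM or more, intervals lay below 0 for 33.0% and above 0 for 12.7% with GPNA. With BenSer these shares were 37.9% and 26.6%. They also bear on the lists that follow, since intervals narrow with depth. TECR, the reductase that ends each elongation cycle, was 54.3 CPM in control cells and -0.13 (-0.21 to -0.05) with GPNA. CBR4, a subunit of the mitochondrial ketoacyl reductase, was lower in both BenSer columns, at 15.4 and 15.1 CPM against 21.8 and 21.6 CPM (-0.49, -0.61 to -0.36). ELOVL2, an elongase of polyunsaturated chains chosen here after its values were seen, had the lowest difference of this list with each compound, at 1.38 and 1.43 CPM in control cells, 0.814 and 0.943 CPM with GPNA (-0.36) and 0.590 and 0.626 CPM with BenSer (-0.58). Its values rest on 39 to 65 reads per group.

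Of 12 other acyl-CoA synthetases, 0 passed 1.5-fold, and the medians were -0.01 with GPNA (0.01 with TMM scaling, so no direction is drawn) and 0.07 with BenSer. SLC27A4, a fatty acid transporter with synthetase activity, was 18.0 CPM in control cells and 13.2 CPM with GPNA (-0.43, -0.56 to -0.29). ACSF2, a synthetase of medium chains, was 24.9 CPM in control cells and 31.9 CPM with BenSer (0.35, 0.25 to 0.45). Of 14 genes that supply carbon and NADPH, 0 passed 1.5-fold (medians -0.10 with GPNA and -0.24 with BenSer). Their intervals lay below 0 for 7 and above 0 for 1 with GPNA (20.1% and 9.78% of all genes). With BenSer they lay below 0 for 9 and above 0 for 3 (25.8% and 18.2% of all genes). The highest differences, chosen after their values were seen, were those of IDH1 with GPNA (0.23) and ME1 with BenSer (0.20), both of which make cytosolic NADPH. CS, citrate synthase, was 146 CPM in control cells, 122 CPM with GPNA (-0.27, -0.32 to -0.22) and 102 CPM with BenSer (-0.51, -0.56 to -0.46). PDHA1, a subunit of pyruvate dehydrogenase, was 81.2 CPM in control cells, 75.5 CPM with GPNA (-0.10) and 56.4 CPM with BenSer (-0.52, -0.58 to -0.45).

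The genes that use fatty acids were also read. Of 18 genes of glycerolipid synthesis and lipid droplets, 0 passed 1.5-fold, and the medians were -0.05 and 0.02. DGAT1, which makes triglyceride, was 38.0 CPM in control cells and 30.7 CPM with GPNA (-0.30, -0.39 to -0.20). PNPLA2, the lipase that starts triglyceride breakdown, was 12.5 CPM in control cells, 11.9 CPM with GPNA and 18.3 CPM with BenSer (0.51, 0.38 to 0.65). Of 21 listed genes of fatty acid oxidation, 0 passed 1.5-fold. With BenSer intervals lay below 0 for 13 and above 0 for 3 (25.8% and 18.2% of all genes), with a median of -0.15. The GPNA median of this list was -0.02, or 0.02 with TMM scaling. ACADM, the medium-chain dehydrogenase, was 29.2 CPM in control cells and 22.01 CPM with BenSer (-0.39, -0.50 to -0.29), and SLC25A20, the carnitine carrier, was 12.2 CPM in control cells and 10.2 CPM with GPNA (-0.23, -0.39 to -0.07).

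Cholesterol genes share SREBP control with the enzymes. Of 23 genes of cholesterol synthesis and uptake, intervals lay above 0 for 8 and below 0 for 2 with GPNA (9.78% and 20.1% of all genes). With BenSer they lay below 0 for 17 and above 0 for 1 (25.8% and 18.2% of all genes). The medians were 0.08 with GPNA and -0.42 with BenSer, where 6 were lower past 1.5-fold (1.58% of all genes). HMGCS1, which makes the precursor of mevalonate, was at 22.5 CPM with GPNA and 22.6 CPM in control cells and at 13.3 CPM with BenSer, a difference of -0.72 (-0.85 to -0.60). MSMO1, a sterol oxidase, was 0.37 with GPNA, and ACAT2 (-0.74) was lower past 1.5-fold with BenSer. STARD4, a sterol carrier, was -1.19 between BenSer and GPNA. SLC1A5, the transporter addressed by the compounds, was read at 41.5 and 41.4 CPM in control cells, 42.1 and 43.3 CPM with GPNA and 62.2 and 62.3 CPM with BenSer (differences 0.04, -0.04 to 0.13, and 0.58, 0.50 to 0.65).

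**Figure D4:**
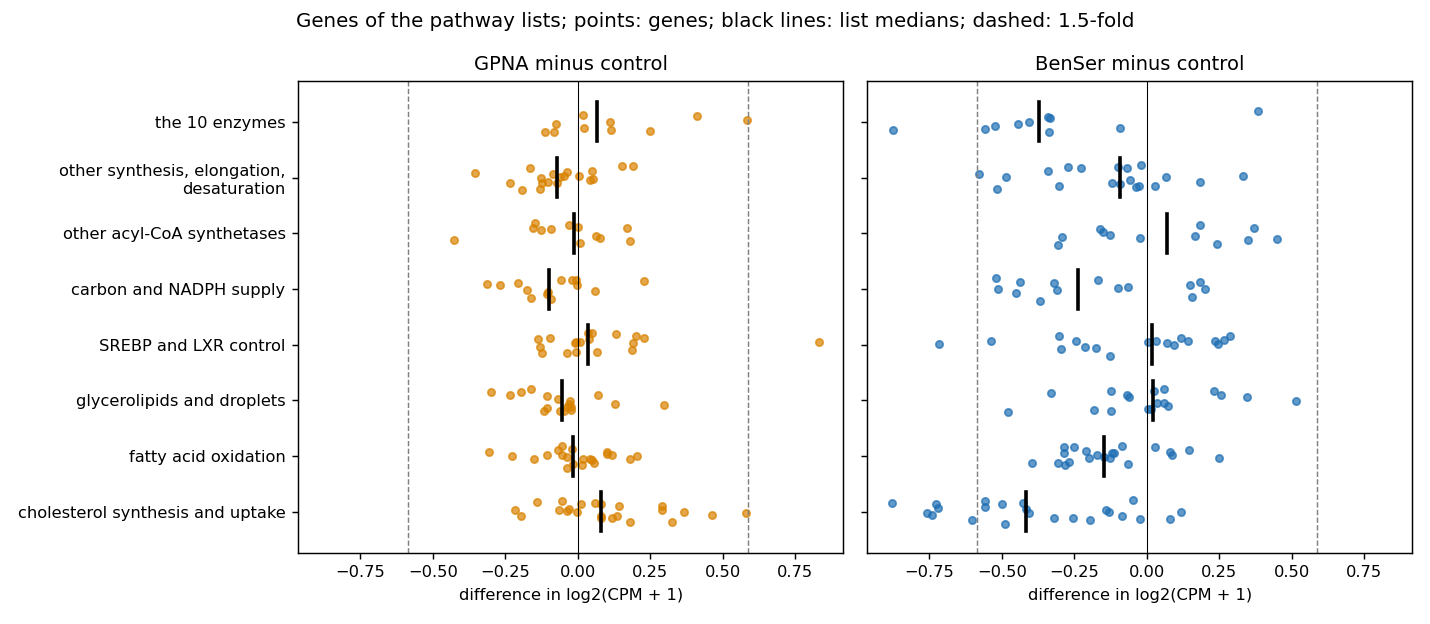
Difference in log2(CPM + 1) (x axis) of each gene of 8 lists with GPNA (left) and BenSer (right). Points are genes, black lines are list medians and dashed lines mark 1.5-fold. With BenSer the medians of the 10 enzymes (-0.37) and the cholesterol genes (-0.42) lie left of those of the other lists.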

How the data were processed

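Total RNA of PC-3 cells (RNA integrity numbers of at least 9.8, per the labels) was made into libraries with a stranded kit and sequenced in pairs. Per the labels and methods, the authors aligned reads to hg19 (GRCh37.p13) with TopHat2, counted them per gene with HTSeq 0.6.2p2 and deposited CPM. The deposited CPM columns gave whole reads and library totals for 100% of values within a tolerance of 0.001 reads. Each table holds 4 value columns per group, of which the 2 named in the labels were used. The other 8 (6 distinct) were not used here, nor were the columns holding the authors' own fold changes and p-values. The methods give 4 replicates per group. The 10 members and the gene lists were chosen with earlier results of these data known. Named genes were the members, SREBF1, SREBF2, SCAP, INSIG1, INSIG2, HMGCS1, SLC1A5 and, per list, those at 1 CPM or more past 1.5-fold (at most 3 each way) or, with none, the gene at 10 CPM or more with the largest difference. Some genes that this rule names are not reported here. Columns were averaged, a pseudocount of 1 was added, and genes with a mean of 5 reads in either group were kept (all 10 members). Alternatives covered pseudocounts (0.1, 5), scalings, thresholds, each column left out, and edgeR 4.0.16, DESeq2 1.42.0 and limma 3.58.1 in R 4.3.3. The procedure was tested on simulated data with changes of 2-fold or more in either direction, which does not cover the smaller differences read here. Positions come from GENCODE on GRCh37 (9 members matched by identifier, ACACA by symbol), and promoter windows from RefSeq.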

Additional observations from a re-analysis of the deposited data

How the results depend on the processing

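The 330 recomputed member differences include those with a column left out of a group absent from the comparison, which could not change. Of the 330, 2 fell outside the counting interval of the original difference, which covers the counting error of the reads only. Both were of ACSL3 with BenSer (-0.045 with TMM scaling and -0.044 with DESeq2 size factors, against an interval of -0.132 to -0.052). No difference that was called changed sign. The count of members higher past 1.5-fold with GPNA went from 0 to 1 (SCD) with a pseudocount of 0.1, TMM scaling, DESeq2 size factors or scaling to the reads on listed genes, and was 0 to 1 over the columns left out. Over all genes that count went from 64 to 879, 82, 81 and 79 with these settings, in that order. At 1.2-fold 2 members were higher with GPNA. With BenSer 1 was higher and 8 lower, and 7 were lower with BenSer than with GPNA. At 2-fold, 0 were lower in either of the latter comparisons. Leaving out a column gave 1 to 2 members lower with BenSer (2 without BenSer replicate 1) and a median of -0.46 to -0.36. Intervals below 0 with GPNA went from 2 to 1 members with TMM scaling (ACLY), a setting chosen after seeing the data. TMM turned the GPNA medians of other acyl-CoA synthetases (0.0147) and fatty acid oxidation (0.0213). It also moved the share of higher among all 1.5-fold calls with BenSer from 55.3% to 66.9%, and over all genes with GPNA the intervals above and below 0 from 1841 and 3792 to 2575 and 2748.

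Taking the columns as separate samples, edgeR's quasi-likelihood test compares the libraries and not the treatments. At a Benjamini-Hochberg adjusted p of 0.05 it called 1466 of 19216 genes higher and 1696 lower with GPNA, 3585 and 3429 with BenSer, and 3490 and 3124 between BenSer and GPNA. Among the members it called 5 higher and 0 lower, 1 and 8, and 0 and 9. The numbers shared by columns name no common culture. With the replicate number as a block the counts were 1458 and 1698, 3562 and 3420, and 3481 and 3102, and the member counts did not change. DESeq2 called 5 and 0, 1 and 7, and 0 and 8 members (ELOVL6 was lost in the BenSer comparisons), and limma 2 and 0 (FADS1, FADS2 and ACSL3 were lost), 1 and 7, and 0 and 8 (ELOVL6 again). Over the genes that it adjusted (10275, 13627 and 12882), DESeq2 called 562 and 707, 2162 and 2036, and 2023 and 1666. Over the 19216 genes, limma called 229 and 273, 2139 and 3076, and 2043 and 2094. It was run on log2(CPM + 1) without the TMM scaling used in edgeR. With 1 column left out in turn, chosen after seeing the data, edgeR called 793 to 856 higher and 906 to 1019 lower with GPNA without any 1 control or GPNA column, and up to 1310 and 1530 without a BenSer column, with the lone column of a group assumed to vary like the others. The cause of these differences was not tested. With 1 sample per group, no interval here covers variation between cultures.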
